A study of Homo sapiens with 6 samples.

Results

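The transcripts described here are 10 genes of insulin-like growth factor (IGF) and insulin signalling, chosen by name and looked up among the 27420 genes of the deposited expression table. All 10 were listed, each with 1 entry. They comprise the ligands IGF1 and IGF2, the receptors IGF1R, INSR and IGF2R, the adaptors IRS1 and IRS2, and the IGF binding proteins IGFBP2, IGFBP3 and IGFBP5. The values come from RNA-seq of A673 and SKNMC, established Ewing sarcoma cell lines, each cultured for 6 h in THZ1 at 50 nM or 200 nM, or in DMSO, its vehicle. THZ1 is a covalent inhibitor of CDK7, the kinase that phosphorylates the C-terminal domain of RNA polymerase II, and the study asked which transcripts are most sensitive to it. Each of the 6 conditions is 1 library, so the spread among replicates is unknown and p-values were not computed.

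IGF1 and IGF2 are secreted growth factors that bind the receptor tyrosine kinase IGF1R, and the insulin receptor INSR is its closest relative, with which it forms hybrid receptors. An activated receptor phosphorylates the docking proteins IRS1 and IRS2, which recruit PI3-kinase and so feed the AKT and mTOR arm, while other adaptors feed the RAS and MAP kinase arm. IGF2R carries no kinase and clears IGF2 to the lysosome, and the binding proteins hold IGFs outside the cell. In Ewing sarcoma, a tumor driven by the EWS-FLI1 fusion, IGF1R has long been studied as a drug target, and IGFBP3 is known as a gene that the fusion represses.

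Levels are given as FPKM, which divides fragments by transcript length and library size. Changes are log2 ratios of FPKM with 1 added, so changes of weakly expressed genes come out smaller than their FPKM ratios. Genes above 1 FPKM in the DMSO library of a line are called active, 11077 in A673 and 11896 in SKNMC. FPKM is a share of a library, so when many transcripts are lost the remaining ones take up more of it, and fewer cells and less RNA per cell cannot be told apart. The summed FPKM of THZ1 libraries ranged from 97.8% to 100.5% of that of the DMSO library of their line. Cytosolic ribosomal protein genes held 13.7%, 16.1% and 17.8% of the sum in A673 with DMSO, 50 nM and 200 nM THZ1. In SKNMC they held 19.0%, 24.7% and 29.7%. Their share was thus higher at each dose in both lines, and its part in the changes of the members was not tested.

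The identity of the cells was checked against fixed markers. All 10 Ewing sarcoma markers exceeded 1 FPKM in every library, with CCND1 the most abundant in both DMSO libraries and CD99 in the THZ1 libraries. Their summed level was 1767, 1520 and 1638 FPKM in A673 and 1261, 959 and 854 FPKM in SKNMC, in order of dose. CD99 and CCND1 carry much of these sums. Most of the 10 markers, NKX2-2, STEAP1, BCL11B and LIPI among them, had lower FPKM at 200 nM than with DMSO, the exceptions being CD99 in both lines and PRKCB in A673. From DMSO to 200 nM FLI1 went from 31.5 to 4.26 FPKM in A673 and from 27.3 to 4.56 FPKM in SKNMC, and NR0B1 from 58.6 to 7.97 and from 25.2 to 8.10 FPKM. Over the same step PRKCB went from 47.9 to 63.9 FPKM in A673 and from 71.6 to 66.3 FPKM in SKNMC, and EWSR1 from 133.6 to 114.6 and from 160.8 to 125.6 FPKM. Epithelial (EPCAM, CDH1, KRT5), endothelial (VWF, CDH5) and skeletal muscle markers (MYOD1, MYOG, DES) stayed below 1 FPKM in all libraries, and PECAM1 was not among the listed genes. Of the leukocyte markers, PTPRC stood at 10.2, 7.90 and 13.1 FPKM in SKNMC, while CD3E was at 0. Fibroblast markers summed to 98.2, 106.1 and 106.9 FPKM in A673 and 123.9, 143.6 and 189.8 FPKM in SKNMC, with COL1A2 the most abundant in each library. What part these transcripts have in the levels of IGF genes was not tested.

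With DMSO, 9 of the 10 members were active in both lines, and IGF2 was below 1 FPKM in all 6 libraries. IRS1 was at least 2-fold lower at both doses in both lines, and IRS2 was at least 2-fold lower at 200 nM alone, a call lost in SKNMC with the 75th percentile scaling (-0.83). As deposited, no ligand and no receptor passed 2-fold in either direction, but with libraries divided by ribosomal protein genes INSR did in SKNMC at 200 nM (-1.12). IGF2R and IGFBP2 had higher FPKM after THZ1 in all 4 comparisons, though by less than 2-fold, and dividing by ribosomal protein genes turned both below 0 in SKNMC at 200 nM, IGF2R in A673 at 200 nM and IGFBP2 in SKNMC at 50 nM.

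**Figure D1:**
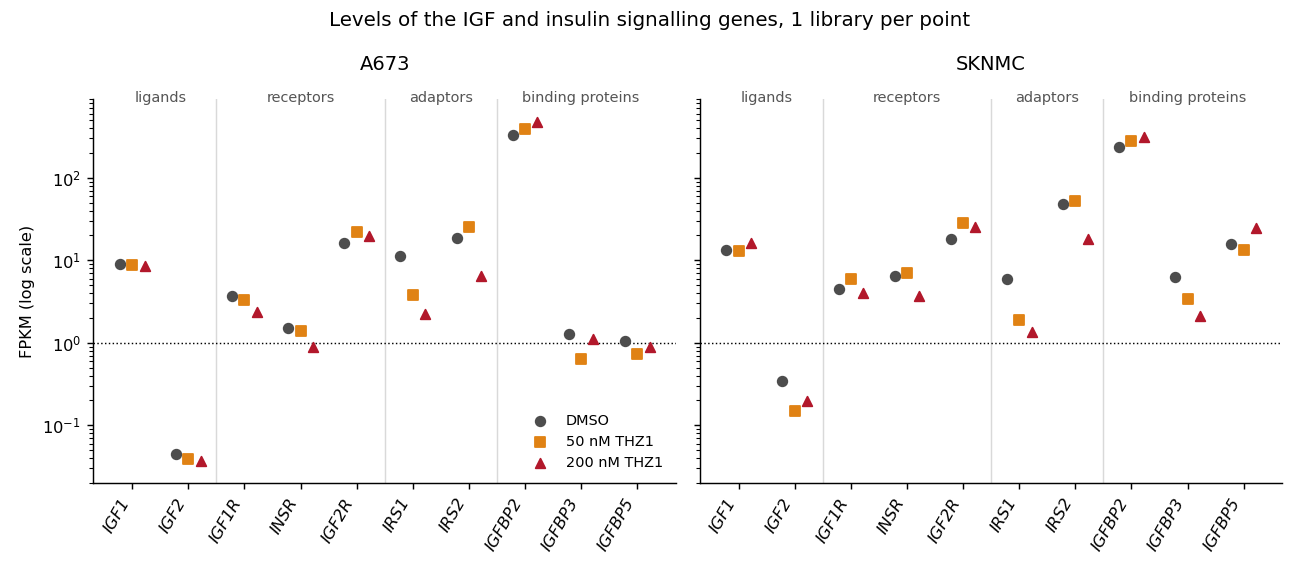
FPKM on a log axis of the 10 members in A673 and SKNMC with DMSO, 50 nM or 200 nM THZ1, 1 library per point, with a dotted line at 1 FPKM. IGFBP2 lies far above the others, up to 478 FPKM, and IGF2 lies below 1 FPKM throughout.

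In A673 at 50 nM, 1 of the 9 active members (IRS1) was at least 2-fold lower, in a comparison where 15.9% of all active genes were. None was at least 2-fold higher, against 0.343% of active genes. At 200 nM in the same line, 2 members (IRS1 and IRS2) were at least 2-fold lower and none higher, against 25.3% and 0.126% of active genes. In SKNMC at 50 nM, 1 member (IRS1) was lower and none higher, against 15.8% and 0.471%. At 200 nM in SKNMC, 3 members (IRS1, IRS2 and IGFBP3) were lower and none higher, against 27.3% and 0.462%. With the 75th percentile scaling this became 1 lower (IRS1) and 1 higher (IGFBP5, 1.18), against 13.4% and 4.33%. These counts are near what the shares of all active genes would give over 9 genes, so the number of lowered members is no result about the group. The median log2 fold change of the 9 was -0.063 and -0.12 in A673 at 50 nM and 200 nM, against -0.27 and -0.40 for all active genes. In SKNMC it was 0.088 and -0.14, against -0.32 and -0.55. With the 75th percentile scaling the medians of the members were 0.091 and 0.071 in A673 and 0.37 and 0.33 in SKNMC. With libraries divided by ribosomal protein genes they were -0.26 and -0.39 in A673 and -0.27 and -0.59 in SKNMC. With genes kept by a mean above 1 FPKM over the 2 libraries, 7 and 8 members entered in A673. Their medians were -0.056 and -0.26, against -0.25 and -0.37 for all genes kept. In SKNMC the 9 members and their medians stayed the same with this filter. The sign of the members' medians and their distance from 0 thus depend on the scaling. In A673 at 200 nM the distance also depends on the filter. Both doses share the DMSO library of their line, so an error in that library would enter both.

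**Figure D2:**
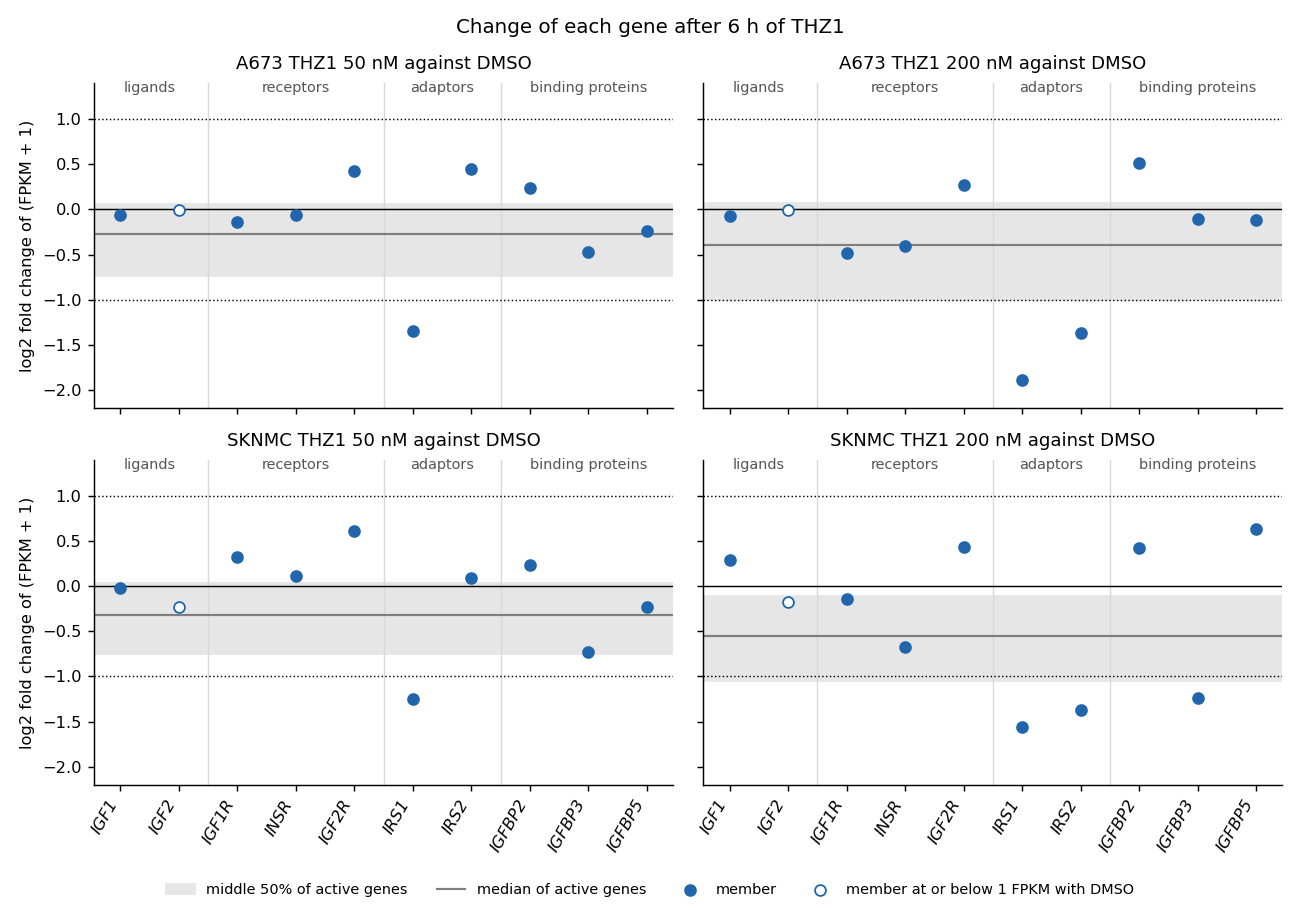
Log2 fold change of (FPKM + 1) of each member for both doses of THZ1 against DMSO in both lines, with the median and the middle 50% of active genes and dotted lines at 2-fold. IRS1 lies below the lower dotted line in all 4 panels (-1.25 to -1.90), and IRS2 lies below it at 200 nM only, as deposited.

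The ligand IGF1 was expressed in both lines and did not pass 2-fold at any dose. The gene (ENSG00000017427, chr12:102789644-102874423 on hg19, minus strand) stood at 9.10, 8.72 and 8.58 FPKM in A673 with DMSO, 50 nM and 200 nM. In SKNMC it stood at 13.3, 13.1 and 16.4 FPKM. Its log2 fold changes lay between -0.077 and 0.29, and their sign turned with the scaling of the libraries in all 4 comparisons. IGF2, the growth factor expressed in many childhood tumors (ENSG00000167244, chr11:2150341-2170833, minus strand), was at 0.0448, 0.0387 and 0.0370 FPKM in A673. The SKNMC libraries held 0.349, 0.148 and 0.198 FPKM of it. At these levels no change of IGF2 was read, and it entered none of the counts. INS-IGF2, a readthrough gene that overlaps IGF2 on the same strand, was at or near 0 in all 6 libraries. The gene for insulin itself, INS, was listed at 0 in all 6.

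Among the receptors, IGF1R and INSR were modestly expressed. IGF1R (ENSG00000140443, chr15:99192199-99507759, plus strand) was at 3.69, 3.26 and 2.35 FPKM in A673 with DMSO, 50 nM and 200 nM. The SKNMC libraries held 4.53, 5.92 and 4.02 FPKM. In A673 its log2 fold change was -0.14 at 50 nM and -0.49 at 200 nM, of which the value at 50 nM turned positive with the 75th percentile scaling. The SKNMC values were 0.32 and -0.14, and the latter turned positive with the same scaling. As deposited, the level of IGF1R was thus lowest at 200 nM in both lines, with no 2-fold change.

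INSR (ENSG00000171105, chr19:7112265-7294045, minus strand) had a similar course at 200 nM. Its FPKM in A673 was 1.51, 1.41 and 0.898, and in SKNMC 6.49, 7.12 and 3.71. At 200 nM its log2 fold change was -0.40 in A673 and -0.67 in SKNMC, and the latter reached -1.12 with libraries divided by their ribosomal protein genes. At 50 nM it was -0.063 and 0.12, with a sign that depended on the scaling in each line. The ratio of IGF1R to INSR FPKM was 2.44, 2.32 and 2.62 in A673 and 0.699, 0.832 and 1.09 in SKNMC. IGF1R was therefore the more abundant of the pair in all A673 libraries, whereas in SKNMC INSR was ahead with DMSO and at 50 nM.

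IGF2R, the clearance receptor, was the most abundant receptor in every library. The gene (ENSG00000197081, chr6:160390130-160534539, plus strand) was at 16.3, 22.3 and 19.9 FPKM in A673 and at 18.3, 28.6 and 25.3 FPKM in SKNMC, in order of dose. At 50 nM its log2 fold change was 0.43 in A673 and 0.61 in SKNMC, higher than those of 95.9% and 97.9% of active genes. This direction held under every scaling and pseudocount tried at 50 nM, with values from 0.21 to 0.68 in A673 and from 0.26 to 0.90 in SKNMC. At 200 nM the values were 0.27 and 0.44, and they became -0.067 and -0.13 with libraries divided by their ribosomal protein genes. A lincRNA gene, RP11-288H12.4, overlaps IGF2R on the same strand, but its FPKM was between 0.382 and 1.47.

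The adaptors, which dock PI3-kinase at the receptors, were both at least 2-fold lower at 200 nM as deposited. IRS1 (ENSG00000169047, chr2:227596032-227664475, minus strand) had 11.1 FPKM in the A673 DMSO library, 3.77 after 50 nM and 2.26 after 200 nM. Its SKNMC levels were 5.91, 1.91 and 1.34 FPKM. The 50 nM libraries thus held 33.8% and 32.3% of the DMSO level, and the 200 nM libraries 20.3% and 22.6%, so most of the decrease was already present at the low dose. Its log2 fold changes were -1.35 and -1.90 in A673 and -1.25 and -1.57 in SKNMC. In these comparisons 8.03%, 5.82%, 9.36% and 10.0% of active genes had a lower value. Under every scaling and pseudocount tried, IRS1 stayed at least 2-fold lower, between -1.05 and -2.25.

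IRS2 behaved differently at the low dose. This gene (ENSG00000185950, chr13:110406183-110438915, minus strand) had 18.4 FPKM in the A673 DMSO library, 25.4 after 50 nM and 6.48 after 200 nM. The SKNMC libraries held 48.7, 51.8 and 18.2 FPKM. At 50 nM its log2 fold change was 0.44 in A673, above 96.2% of active genes and positive under every scaling, and 0.088 in SKNMC, where dividing by ribosomal protein genes gave -0.27. At 200 nM it was -1.37 in both lines. IRS2 then stood at 35.2% of its DMSO level in A673 and at 37.4% in SKNMC. Under the other scalings and pseudocount the value at 200 nM ranged from -1.04 to -1.68 in A673 and from -0.83 to -1.93 in SKNMC, so with the 75th percentile scaling the SKNMC decrease was less than 2-fold.

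The high dose set against the low dose made the contrast between the adaptors plainer. From 50 nM to 200 nM IRS2 changed by -1.82 in A673 and by -1.46 in SKNMC, and only 0.605% and 2.40% of active genes had a lower value. IRS1 changed by -0.55 and -0.32 over the same step. IRS2 was the 1 member at least 2-fold lower in each line and none was higher. The background in A673 was 7.44% of active genes lower and 0.117% higher, and in SKNMC it was 8.39% lower and 0.37% higher. IRS2 kept its 2-fold decrease between the doses under every scaling and pseudocount tried, while IGFBP5 in SKNMC, at 0.86, passed 2-fold higher with the 75th percentile scaling (1.14). The median over the 9 members was -0.16 in A673 and -0.32 in SKNMC, against -0.019 and -0.14 for all active genes.

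**Figure D3:**
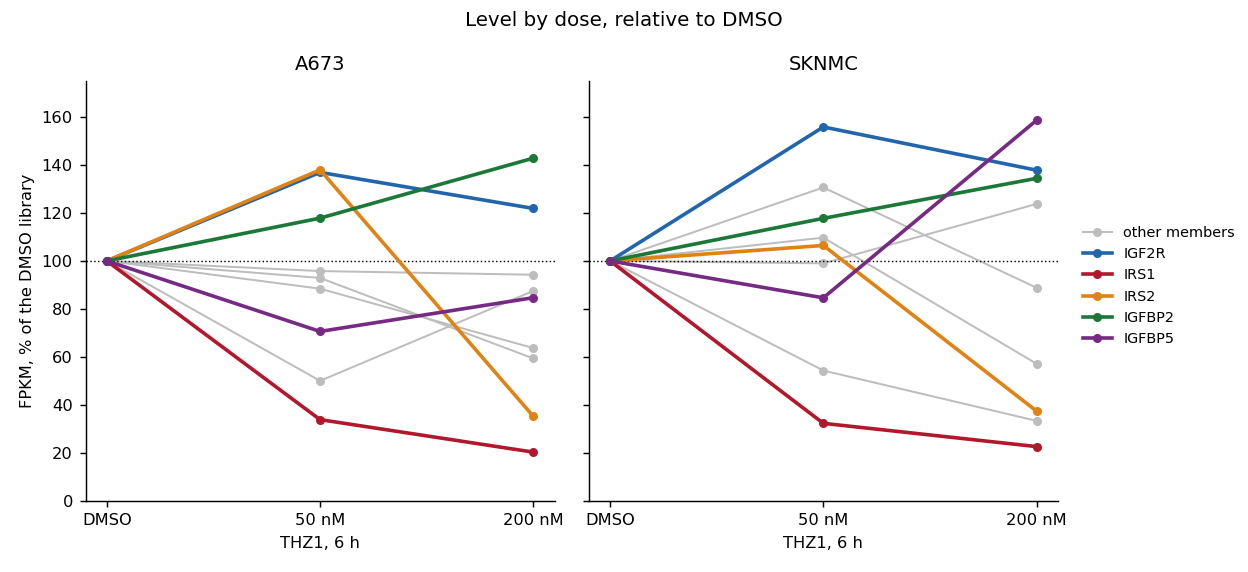
FPKM of the 9 active members in each THZ1 library as a percent of the DMSO library of the line, 1 library per point, with 5 members in color. IRS1 drops to 33.8% and 32.3% at 50 nM, whereas IRS2 as deposited is above its DMSO level at 50 nM (in SKNMC below it with ribosomal protein scaling) and reaches 35.2% and 37.4% at 200 nM.

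The balance of the adaptors shifted accordingly. The ratio of IRS2 to IRS1 FPKM in A673 was 1.65 for DMSO, 6.74 for 50 nM THZ1 and 2.87 for 200 nM. The SKNMC ratios were 8.24, 27.2 and 13.6. Ratios within a library do not depend on how libraries are scaled, whereas sums do. The sum of the adaptors was 29.5, 29.1 and 8.74 FPKM in A673 and 54.6, 53.7 and 19.5 FPKM in SKNMC. As deposited, the sum at 50 nM thus stood within 2 FPKM of the DMSO library in each line while its composition moved toward IRS2.

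IRS1 and IRS2 share features of gene structure that the choice of members did not use. In the annotation (GENCODE 44 on GRCh37) the longest coding transcript of each has 2 exons, of 9771 nt in IRS1 and 8156 nt in IRS2, and the whole protein of IRS1 is encoded in 1 exon. The other members have from 4 exons (IGF1, IGF2, IGFBP2 and IGFBP5) to 48 (IGF2R), with 21 in IGF1R, 22 in INSR and 5 in IGFBP3. Of 10374 protein-coding genes active in both lines, 98.7% could be matched to the annotation, and their median was 9 exons. Only 672 of the 10243 matched genes (6.56%) had at most 2 exons, IRS1 and IRS2 among them. This limit was chosen after the values of the adaptors were seen. Of these 672 genes, 36.9% were at least 2-fold lower in A673 at 50 nM, against 14.4% of the 9571 genes with more exons. At 200 nM the shares were 53.1% and 23.7%. In SKNMC they were 35.7% and 14.5% at 50 nM, and 51.9% and 27.2% at 200 nM. IRS1 was thus among the lowered genes with few exons at both doses, and IRS2 was so at 200 nM only.

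Since the adaptors are the members called lower at 200 nM in both lines as deposited, the 250 bases before their annotated starts are shown, with those of IGF2R, which was not 2-fold lower in any comparison run, for comparison. The sequences are from RefSeq (GRCh38.p14). In the set of promoters used, 9 of the 10 members were matched and IGF2 was not. They run 5′ to 3′ on the strand of the gene, and capitals mark GGGCGG or its reverse complement CCGCCC, the core of the GC box, a motif chosen after the values were seen. The intervals are chr2:226799821-226800070 (minus strand) for IRS1, chr13:109786584-109786833 (minus strand) for IRS2 and chr6:159968832-159969081 (plus strand) for IGF2R.
IRS1: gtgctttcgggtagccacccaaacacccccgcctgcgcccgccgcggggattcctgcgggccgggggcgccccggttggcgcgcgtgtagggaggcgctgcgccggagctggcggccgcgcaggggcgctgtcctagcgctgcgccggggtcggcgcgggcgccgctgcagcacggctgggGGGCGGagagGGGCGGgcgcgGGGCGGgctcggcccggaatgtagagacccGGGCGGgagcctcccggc
IRS2: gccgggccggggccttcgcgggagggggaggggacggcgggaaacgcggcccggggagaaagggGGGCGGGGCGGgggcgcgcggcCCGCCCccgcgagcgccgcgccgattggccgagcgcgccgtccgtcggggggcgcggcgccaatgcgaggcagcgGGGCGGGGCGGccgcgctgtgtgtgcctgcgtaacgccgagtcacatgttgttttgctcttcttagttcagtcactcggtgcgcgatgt
IGF2R: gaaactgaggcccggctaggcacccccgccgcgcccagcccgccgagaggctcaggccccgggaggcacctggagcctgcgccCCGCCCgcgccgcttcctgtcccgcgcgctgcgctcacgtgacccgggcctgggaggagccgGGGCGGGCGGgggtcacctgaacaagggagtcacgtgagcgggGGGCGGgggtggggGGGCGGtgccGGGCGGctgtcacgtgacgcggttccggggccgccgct

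Overlapping copies counted apart, the motif occurs 4 times before IRS1, 5 times before IRS2 and 6 times before IGF2R. INSR has 4 copies, IGF1R and IGFBP3 have 2 each, and IGFBP5 has none. Members with several annotated starts were read at each, and IGF1 had no copy at its 2 starts while IGFBP2 had 1, 1 and 0 copies at its 3. Of all 35116 promoters in the table, 42.6% hold it on either strand. The promoters of IRS1 and IRS2 are rich in G and C (80.8% and 76.4%, against a median of 58%) and in CpG dinucleotides (39 and 42, against a median of 11). IGF2R (79.2%) and IGF1R (81.2%) are as rich, and a match is given as a description only. The letters TATAAA, GGAAGGAA (a pair of GGAA repeats, the kind of element EWS-FLI1 binds) and TGACGTCA are found on either strand in 10.7%, 3.06% and 1.65% of all promoters, and in none of the windows of the 9 matched members at the start listed first. CACGTG, found in 6.34%, occurs 3 times before IGF2R.

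The binding proteins, which control how much IGF reaches its receptors, had unlike courses. IGFBP2 (ENSG00000115457, chr2:217497550-217529159, plus strand) was at 335, 394 and 478 FPKM in A673 with DMSO, 50 nM and 200 nM. Its SKNMC levels were 235, 276 and 315 FPKM. It was the most abundant member in each library and made up 84.3%, 85.6% and 91.8% of the summed FPKM of the 10 members in A673, and 66.2%, 68.8% and 76.6% in SKNMC. Its log2 fold changes were 0.24 and 0.51 in A673 and 0.23 and 0.43 in SKNMC, and the last of these placed it above 94.9% of active genes. In A673 they stayed positive under every scaling, down to 0.0021 at 50 nM, while in SKNMC they became -0.13 and -0.17 with libraries divided by their ribosomal protein genes.

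IGFBP3 (ENSG00000146674, chr7:45951948-45961473, minus strand) was low in A673, at 1.28, 0.639 and 1.12 FPKM. In SKNMC it was at 6.30, 3.42 and 2.10 FPKM and thus lower at each higher dose. Its log2 fold changes there were -0.72 at 50 nM and -1.24 at 200 nM. With libraries divided by ribosomal protein genes the value at 50 nM passed 2-fold, and with the 75th percentile scaling the value at 200 nM no longer did (-0.83). In A673 the values were -0.47 and -0.11, and the latter changed sign with the scaling. IGFBP1, its neighbor 18680 bp away on hg19, was listed at 0 in all 6 libraries.

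IGFBP5 (ENSG00000115461, chr2:217536827-217560248, minus strand) lies 7667 bp from IGFBP2 on the opposite strand. It was at 1.05, 0.739 and 0.886 FPKM in A673 and at 15.7, 13.3 and 24.95 FPKM in SKNMC. In SKNMC at 200 nM its log2 fold change was 0.63, above 97.7% of active genes, and it was positive under every scaling, from 0.065 to 1.18. At 50 nM in SKNMC it was -0.23, and 0.047 with the 75th percentile scaling. The A673 values were -0.24 and -0.12, at levels near 1 FPKM or below, and that at 200 nM also changed sign with the scaling.

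Between the lines, 4 of the 9 members with a mean above 1 FPKM in the DMSO libraries were at least 2-fold lower in A673 than in SKNMC, and none was higher. Of 11855 genes compared in this way, 14.2% were lower and 8.39% higher. The members were IGFBP5 (-3.03), IGFBP3 (-1.68), INSR (-1.58) and IRS2 (-1.36), 2 binding proteins, a receptor and an adaptor. With libraries divided by ribosomal protein genes IRS2 was no longer 2-fold lower (-0.91), and IRS1 passed 2-fold higher in A673 (1.24, against 0.81 as deposited). IGFBP2 was at 0.51, IGF1 at -0.50, IGF1R at -0.24 and IGF2R at -0.16, and the sign of IGF1R and IGF2R turned with that scaling. The median of the 9 was -0.50, against -0.089 for all genes compared. With libraries divided by ribosomal protein genes these medians became -0.074 and 0.33. Of all genes compared, 9.36% were then lower in A673 and 18.1% higher. Of the fibroblast markers, DCN and COL1A1 were also lower in the A673 DMSO library, and COL1A2 was higher. Their part in these differences was not tested. Line and library cannot be told apart here.

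In the order of the levels within a library, IGFBP2 led in all 6 libraries. With DMSO and at 50 nM IRS2 and IGF2R followed in both lines, and at 200 nM IGF2R came next, ahead of IGF1 in A673 and of IGFBP5 in SKNMC, with IRS2 after them. IRS1 was the fourth of 10 in A673 with DMSO and the sixth at 200 nM, and in SKNMC it went from the eighth to the ninth. No spread is available to say which neighbors in this order differ.

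Scaling matters for the members that changed little. Dividing each library by its 75th percentile (active genes) moved the median over all of them from -0.40 to -0.072 in A673 at 200 nM and from -0.55 to -0.070 in SKNMC. Dividing by the median of ribosomal protein genes moved them to -0.68 and -1.01. At 50 nM the medians moved from -0.27 to -0.055 or -0.47 in A673, and from -0.32 to -0.069 or -0.63 in SKNMC. As deposited, IRS1 lay below the median of all active genes in all 4 comparisons. IGF1, IGF2R, IGFBP2 and IGFBP5 lay above it in all 4. IGFBP5 in A673 at 50 nM fell below it with the 75th percentile scaling (-0.12, against -0.055). It also did so with a pseudocount of 0.1 (-0.45, against -0.31).

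**Figure D4:**
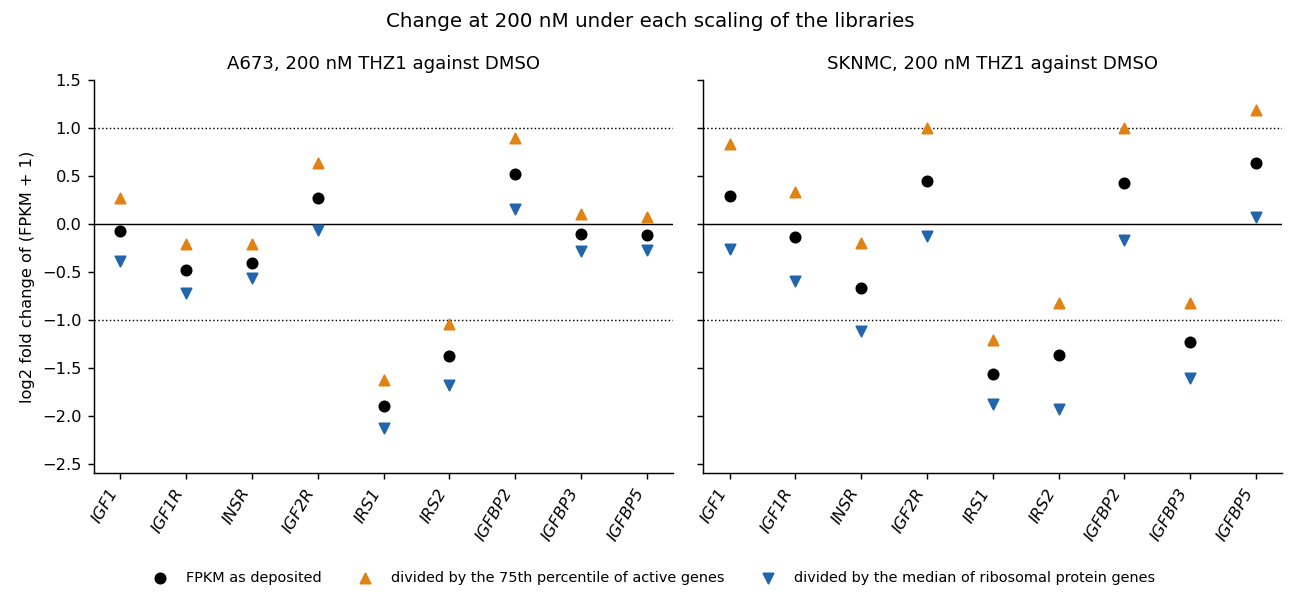
Log2 fold change of (FPKM + 1) at 200 nM THZ1 against DMSO for the 9 active members in both lines, with FPKM as deposited and with libraries divided by the 75th percentile of active genes or by the median of ribosomal protein genes, with dotted lines at 2-fold. IRS1 stays below the lower line in both panels, and IGF2R changes sign in both with ribosomal protein scaling.

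The other genes of the pathway were taken from a list of 74 that act beside or below the members, all of which were listed and 63 of which were active in each line. At 50 nM 5 were at least 2-fold lower in A673 and 5 in SKNMC. At 200 nM 13 were lower in A673 and 11 in SKNMC. None was at least 2-fold higher in these comparisons. The lower counts are 7.94% of the active list in each line at 50 nM, and 20.6% and 17.5% at 200 nM, below the shares of all active genes as deposited. In A673 at 200 nM this did not hold with libraries divided by ribosomal protein genes (22 of 63, against 34.7% of active genes), at a 1.5-fold threshold (28 of 63, against 41.1%) or without the filter on low values (13 of 71, against 15.1%). Median log2 fold changes over the list were -0.020 and -0.42 in A673 and -0.15 and -0.43 in SKNMC. With the 75th percentile scaling they were 0.22 and -0.12 in A673 and 0.11 and 0.055 in SKNMC. With libraries divided by ribosomal protein genes they were -0.24 and -0.69 in A673 and -0.47 and -0.97 in SKNMC.

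**Figure D5:**
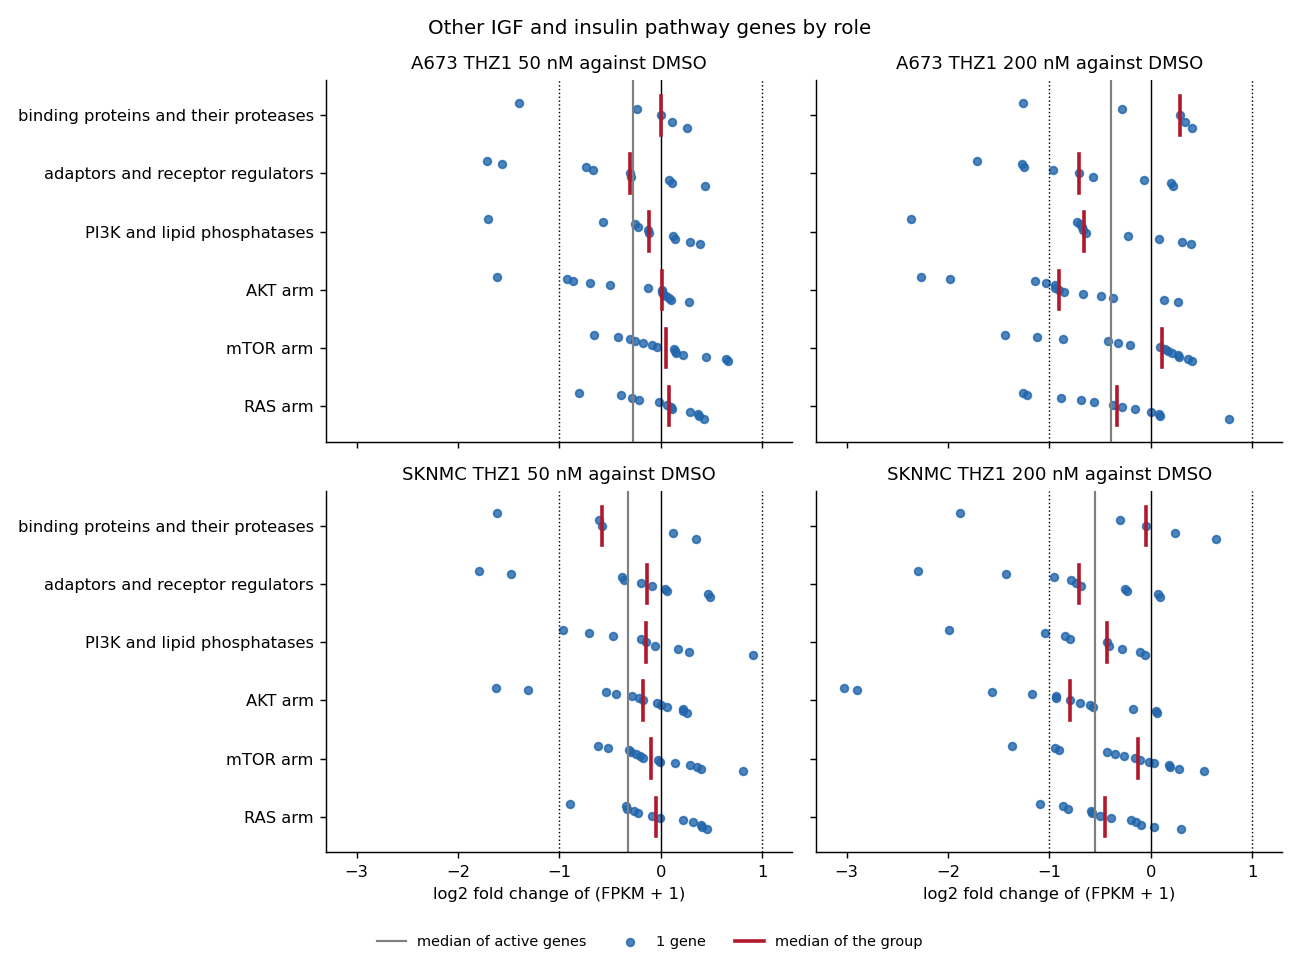
Log2 fold change of (FPKM + 1) of the active genes of the pathway list by role, for both doses of THZ1 against DMSO in both lines, 1 point per gene, with the median of each group in red and that of all active genes in grey. At 200 nM the AKT arm has the lowest group median in both lines (-0.90 and -0.80).

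By role, the decreases at 200 nM were spread over the arms of the pathway. At 50 nM 0 of 14 active genes of the mTOR arm and 0 of 12 of the RAS arm were lower in each line. The 5 lower genes of each line lay in the other groups. Of all active genes, 15.9% in A673 and 15.8% in SKNMC were lower at 50 nM. At 200 nM 4 of the 13 active genes of the AKT arm were at least 2-fold lower in each line, with medians of -0.90 in A673 and -0.80 in SKNMC. Of all active genes, 25.3% and 27.3% were lower at this dose, so a few genes of 13 are near the background. The adaptors and receptor regulators had 3 of 9 lower in A673 and 2 of 10 in SKNMC, with medians of -0.71 in each line. In the mTOR arm 2 of 14 and 1 of 14 were lower, with medians of 0.11 and -0.13. Of the 12 genes of the RAS arm 2 were lower in A673 and 1 in SKNMC, with medians of -0.33 and -0.45. The PI3K group had 1 of 10 and 2 of 9 lower, with medians of -0.66 and -0.43. The other binding proteins and their proteases had 1 of 5 lower in each line, with medians of 0.29 and -0.049.

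Beside IRS1, 4 genes of the list were at least 2-fold lower at both doses in both lines. The share of all active genes lower in all 4 comparisons is not given here, so this count is no result about the list. DOK1 and SH2B2 encode adaptors of receptor tyrosine kinases, STC2 a secreted inhibitor of the proteases that cleave IGF binding proteins, and TRIB3 a pseudokinase that binds AKT. SH2B2 was at 3.51, 0.521 and 0.378 FPKM in A673 and at 10.9, 2.42 and 1.41 FPKM in SKNMC. TRIB3 was at 17.7, 5.10 and 2.88 FPKM in A673 and at 11.97, 3.19 and 0.736 FPKM in SKNMC. DOK1 was at 8.55, 1.92 and 3.01 FPKM in A673 and at 4.01, 0.801 and 0.868 FPKM in SKNMC. All 4 were thus already low at 50 nM, as IRS1 was. Their lowest and highest log2 fold changes over the 4 comparisons were -2.30 and -1.57 for SH2B2 and -2.90 and -1.62 for TRIB3. Those of DOK1 were -1.71 and -1.25, and those of STC2 were -1.88 and -1.26. Under all scalings and pseudocounts tried SH2B2, STC2 and TRIB3 kept their 2-fold decrease in each comparison, and DOK1 did so in all except A673 at 200 nM with the 75th percentile scaling (-0.96).

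PIK3R1, which encodes the regulatory subunit of PI3-kinase that docks on phosphorylated IRS proteins, was among the lowest of the list in A673, at -1.70 with 50 nM and -2.37 with 200 nM. In SKNMC it was at -0.96 and -1.99. The lowest gene of the list in SKNMC at 200 nM was TRIB1 (-3.02). At the upper end stood RICTOR (0.64) and TSC1 (0.66) in A673 at 50 nM and TSC1 (0.81) in SKNMC at 50 nM. At 200 nM they were IGFBP6 (0.41) and MAPK3 (0.77) in A673, and RPS6 (0.53) and IGFBP6 (0.65) in SKNMC. None of these upper values reached 2-fold as deposited, and that of RPS6 became -0.070 with libraries divided by ribosomal protein genes. With the 75th percentile scaling MAPK3 in A673 (1.13) and TSC1 (1.08), RPS6 (1.09) and IGFBP6 (1.17) in SKNMC passed 2-fold. Between the DMSO libraries, 11 of 65 genes of the list were at least 2-fold lower in A673 and 4 higher, with a median of -0.22. These are 16.9% and 6.15%, near the 14.2% and 8.39% of all genes compared.

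From 50 nM to 200 nM, 5 genes of the list were at least 2-fold lower in A673 and 9 in SKNMC, with medians of -0.27 and -0.35. These are 7.94% of the active list, against 7.44% of all active genes in A673, and 14.3% against 8.39% in SKNMC. None was at least 2-fold higher.

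Genes with a pattern like that of each member were sought among 10564 other genes active in both lines, by the Euclidean distance over the 4 log2 fold changes of THZ1 against DMSO. The pattern of IRS2, level or higher at 50 nM and lower at 200 nM, was the least common, with 43 genes within a distance of 0.5. ARID1A was the closest (0.104), followed by ZNF654 (0.275) and FEM1B (0.319). IRS1 had 182 genes within that distance, of which KIAA0226L (0.168), KAT5 (0.174) and MYEOV (0.187) were the closest. The pattern of IGFBP5 had 98, among them NT5E (0.158) and TBRG1 (0.215), and that of IGFBP3 had 223, led by VAV1 (0.130), GORASP1 (0.145) and NGLY1 (0.168). The other active members had more neighbors, from 404 for IGF1R and 445 for IGF2R to 952 for IGFBP2. SDK1, LMNA and CDHR3 were closest to IGF2R, and PHKB, NPW and UCHL1 to IGFBP2. The nearest to IGF1R were ID1, SNX8 and FGFR3, those to INSR were RRP15, LIX1L and EPS15, and those to IGF1 were ZNF532, TRPM7 and NSF.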

How the data were processed

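RNA-seq values of 6 libraries were used, 1 for each of 6 conditions, grouped by the sample labels. The authors sequenced TruSeq libraries on a HiSeq2000 as 100-bp paired-end reads and deposited FPKM values for 20311 protein-coding and 7109 lincRNA genes (hg19, Ensembl 75). Their methods name STAR and StringTie, and the submitters' processing notes name STAR and Cufflinks. The table title speaks of averages, but the labels give 1 library per condition. The authors' log2 fold change columns, which hold the log2 ratio of FPKM with 1 added for each THZ1 library against DMSO of its line, were not used. FPKM holds no read counts, and low values did not yield them, since at most 1.40% sat at a common step, so depth is unknown.

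Changes were log2((FPKM + 1) / (FPKM + 1)), called at 2-fold among genes above 1 FPKM with DMSO. No test across libraries was made, since no condition has a replicate. The calling step was run on simulated data with shifts of known size and no noise. This checks its arithmetic alone and says nothing about the reliability of the calls. Named genes were the 10 members, pathway genes at least 2-fold lower or higher in all 4 THZ1 comparisons, the 2 lowest and 2 highest of the pathway list in each, and the 3 nearest patterns. A few genes that these rules or the marker lists would name are not used here. Members and lists were chosen with earlier results of these data known. Alternatives were a pseudocount of 0.1, 3 scalings, other filters on low values, protein-coding genes alone and a 1.5-fold threshold. Python 3.11.15, numpy 2.4.6, pandas 2.3.3 and matplotlib 3.10.9 were used.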

Additional observations from a re-analysis of the deposited data

Results flagged for a closer look

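Some members had values of opposite sign in the 2 lines at the same dose. IGF1R at 50 nM had a log2 fold change of -0.14 in A673, positive with the 75th percentile scaling, and 0.32 in SKNMC. INSR at 50 nM was at -0.063 in A673 and 0.12 in SKNMC, and both signs turned with the scaling. At 200 nM IGF1 was at -0.077 in A673 and 0.29 in SKNMC, with signs that also turned. IGFBP5 at 200 nM was at -0.12 in A673, positive with the 75th percentile scaling, and 0.63 in SKNMC. With 1 library per condition, these differences between lines were not tested. Opposite signs were common: among 10565 genes active in both lines, 1609 (15.2%) had them at 50 nM and 1975 (18.7%) at 200 nM.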

How the results depend on the processing

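Neither THZ1 direction of IRS1 nor its 2-fold call changed under any of the scalings or pseudocounts tried. Counts of members at least 2-fold changed differed by more than 1.5 times from the values as deposited in few cases. In SKNMC at 50 nM there were 2 with libraries divided by ribosomal protein genes and 3 at a 1.5-fold threshold, against 1. In SKNMC at 200 nM there were 5 at 1.5-fold, against 3, and from 50 nM to 200 nM 2 with the 75th percentile scaling (1 lower, 1 higher) and 3 at 1.5-fold, against 1. Counts over the pathway list moved more. In A673 they were 8 with ribosomal protein scaling and 14 at 1.5-fold at 50 nM, against 5, and at 200 nM 7 with the 75th percentile, 22 with ribosomal protein scaling and 29 at 1.5-fold, against 13. In SKNMC they were 8 with a pseudocount of 0.1 and 12 at 1.5-fold at 50 nM, against 5, and 29 with ribosomal protein scaling and 28 at 1.5-fold at 200 nM, against 11. By definition a 1.5-fold threshold can only add calls to those made at 2-fold. The median FPKM of ribosomal protein genes was 720, 848 and 922 in A673 and 994, 1285 and 1502 in SKNMC, in order of dose. Dividing by it therefore lowers the log2 fold changes against DMSO. The other 65 totals over both directions stayed within 1.5 times, but their split moved in some. With the 75th percentile scaling SKNMC at 200 nM had 1 member lower and 1 higher, and 7 pathway genes lower and 2 higher, and SKNMC at 50 nM had 5 pathway genes lower and 2 higher. Between the lines 3 members were lower and 1 higher with ribosomal protein scaling, and 4 and 1 at 1.5-fold. Lower genes made up 98.3% of all called genes in SKNMC at 200 nM and 75.6% with the 75th percentile scaling. Between the doses in SKNMC they made up 95.8%, 72.8% with that scaling and 85.4% at 1.5-fold, and between the lines 62.8%, or 34.2% with ribosomal protein scaling. No called member changed sign. Unknown depth left no interval for low genes such as IGF2.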
